A study of Oryza sativa with 6 samples.

Results

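Expression of 9 genes for the transport of silicon, manganese and heavy metals, and for the root barriers such transport has to pass, was described in the roots of rice that overexpressed the transcription factor gene *OsMYB305*. The members were listed by name and were found by their MSU locus names among 55982 loci. They were the silicon transporter genes *Lsi1* (LOC_Os02g51110) and *Lsi2* (LOC_Os03g01700), the manganese transporter genes *OsNramp5* (LOC_Os07g15370), *OsNramp1* (LOC_Os07g15460) and *OsMTP9* (LOC_Os01g03914), the heavy metal ATPase genes *OsHMA3* (LOC_Os07g12900) and *OsHMA2* (LOC_Os06g48720), and the barrier genes *OsCASP1* (LOC_Os04g58760) and *OsABCG5/RCN1* (LOC_Os03g17350). RNA-seq was performed on whole roots of 14-day-old seedlings supplied with 0.288 mM NH4NO3, a low nitrogen supply. The WT was cultivar ZH11, and OE15 and OE20 were independent transgenic lines of the same cultivar in which the constitutive CaMV promoter drove the coding sequence of *OsMYB305*. Each genotype had 2 libraries, 6 in all, and nothing in the labels says whether the 2 were separate plants or cultures, so p-values measure the spread between these libraries, which may be technical.

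Rice takes up silicon and manganese through pairs of transporters placed on opposite sides of the same root cells. An influx transporter faces the soil side of the exodermis and endodermis, and an efflux transporter faces the stele, so that the element crosses the cell in one direction. The Casparian strip, a band of lignin in the wall between endodermal cells, closes the path between these cells, and suberin lamellae coat the cell surface and limit uptake across it. Cadmium, a toxic metal, enters by the manganese route and is then either locked in root vacuoles or loaded towards the shoot.

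The values are FPKM, the fragments assigned to a locus scaled to the length of its transcript and to the size of the library. FPKM carries no read totals. Steps in the FPKM of 961 loci with very low values gave a depth of 0.984 to 1.36 relative to WT replicate 1, the deepest library being WT replicate 2. *OsMYB305* read 0.0388 and 0.0576 FPKM for WT roots, 150.2 and 148 for OE15 roots and 81.3 and 80.2 for OE20 roots, as the labels require. Of the root markers, *OsNRT2.1*, *OsNRT2.2*, *OsNAR2.1* and *Lsi1*, all 4 were above 0 in every library, with a summed level of 645 to 652 FPKM in the WT, 814 to 821 in OE15 and 878 to 884 in OE20, most of it *Lsi1* itself. A list of 7 leaf loci for the Rubisco small subunit and chlorophyll a/b-binding proteins had 6 members in the files, none of them at 0. Their summed level was 181 to 191 FPKM in the WT, 211 to 214 in OE15 and 177 to 183 in OE20. The higher sum in OE15 came mostly from 1 locus, with 35.9 and 38.7 FPKM in the WT against 62.1 and 64.8 in OE15, while 3 of the 6 were lower in both OE15 libraries than in the WT. The part of these loci in the results was not tested. Whole roots were sequenced, so more cells of a type and more RNA per cell cannot be told apart.

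The 9 genes spanned a wide range of levels in the WT root. *Lsi1* and *Lsi2* stood far above the others, with 545 ± 9.66 and 544 ± 2.47 FPKM (SD, n = 2), ranks 117 and 119 among the 20627 loci tested. Their library values overlapped. *OsCASP1* followed with 48.2 ± 2.21 FPKM, *OsMTP9* with 45.0 ± 0.203 FPKM, *OsNramp5* with 39.1 ± 0.500 FPKM and *OsABCG5/RCN1* with 36.1 ± 1.66 FPKM. These genes exceeded 82.3% to 86.9% of the loci tested. *OsHMA2* was at 19.6 ± 0.442 FPKM and *OsHMA3* at 12.5 ± 0.582 FPKM, whereas *OsNramp1* was at 1.28 ± 0.0712 FPKM and exceeded only 4.19% of the loci tested. Apart from *Lsi1* and *Lsi2*, no neighbours in this order overlapped in their WT libraries. In OE15 the order of the middle group changed, with *OsMTP9* and *OsNramp5* above *OsCASP1*.

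**Figure D1:**
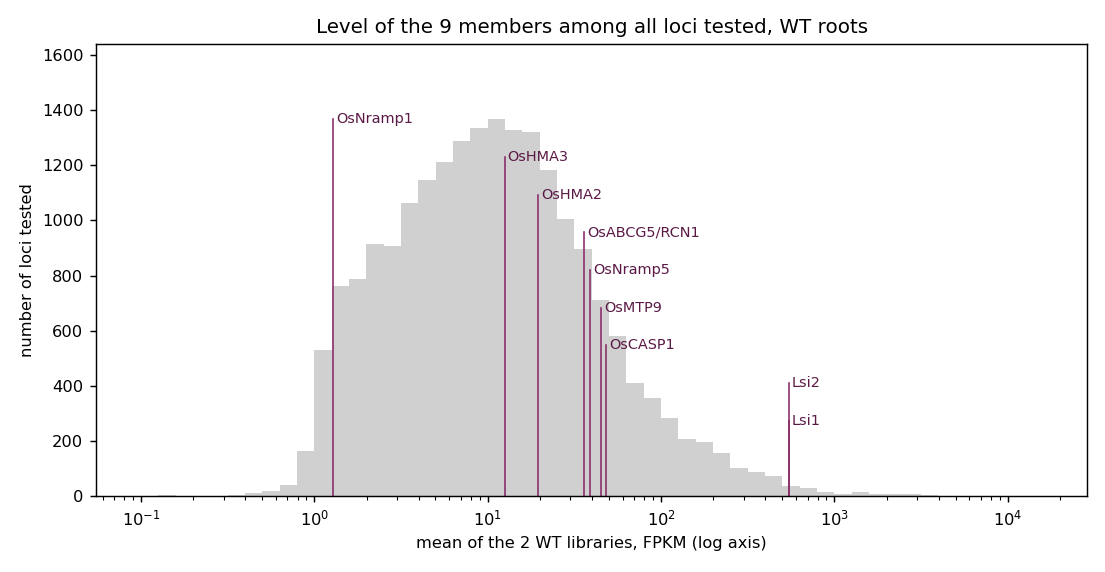
The histogram counts the loci tested by their mean FPKM in the 2 WT libraries on a log axis, leaving out 34 loci below 0.1 FPKM in the WT, and the lines mark the 9 members (line height carries no value). *Lsi1* and *Lsi2*, at 545 and 544 FPKM, lie in the upper tail, and *OsNramp1*, at 1.28 FPKM, lies near the lower end.

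All 9 members averaged 1 FPKM or more across the libraries and were tested with limma on log2(FPKM + 0.1), with Benjamini-Hochberg adjustment over all loci tested. In the text, rose and fell are written of an adjusted p under 0.05, and a gene is called differentially expressed when its change was also above 1.5-fold. In OE15, 5 members rose (*Lsi1*, *OsNramp5*, *OsNramp1*, *OsMTP9* and *OsHMA3*) and 1 fell (*OsCASP1*), against 10.5% and 9.89% of all loci tested. In OE20, 5 members rose (*Lsi1*, *Lsi2*, *OsNramp5*, *OsMTP9* and *OsHMA3*) and none fell, against 6.40% and 5.47% of all loci. The 4 genes *Lsi1*, *OsNramp5*, *OsMTP9* and *OsHMA3* rose in both lines, as did 4.03% of all loci. The comparisons of both lines share their WT libraries. The members were chosen with earlier results of these data known, so these counts beside the shares are not independent evidence.

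These changes were small. With the limit of 1.5-fold, only *OsNramp1* in OE15 was differentially expressed (5.50% of all loci in OE15), and no member was in OE20 (3.11% of all loci), where limma gave 7 of the 9 an unadjusted p under 0.05, as it did 27.4% of all loci. The log2 fold changes ran from -0.27 to 0.70 in OE15 and from -0.072 to 0.65 in OE20. The median over the members was 0.20 in OE15 and 0.19 in OE20, and over all loci tested it was 0.023 and 0.016. In 6 members all 4 OE libraries lay above both WT libraries, as in 18.9% of all loci, and in no member did all 4 lie below, as in 14.8% of all loci. Taking each line alone, the libraries of 6 members lay wholly above and of 1 wholly below the WT in OE15 (34.7% and 28.1% of all loci), and of 7 above and 1 below in OE20 (31.0% and 25.0%).

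**Figure D2:**
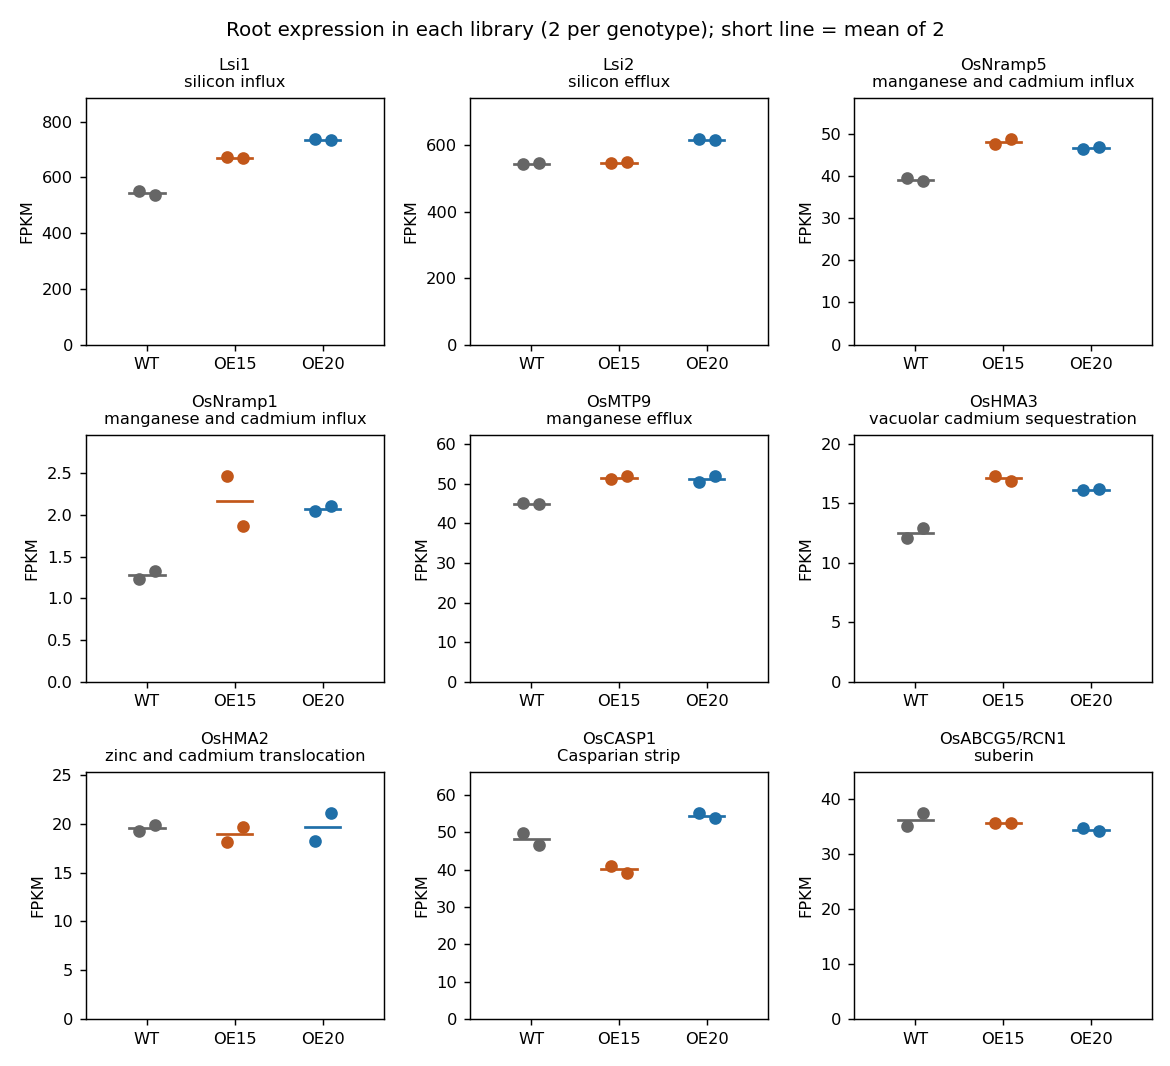
Each panel shows FPKM of 1 gene on an axis from 0, with a point for each library and a short line for the mean of the 2 libraries of a genotype. *Lsi1*, *Lsi2*, *OsNramp5*, *OsNramp1*, *OsMTP9* and *OsHMA3* have all 4 OE libraries above both WT libraries, *OsHMA2* overlaps in all genotypes, and *OsCASP1* has OE15 below and OE20 above the WT.

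*Lsi1* encodes a channel of the aquaporin family that lets silicic acid into root cells. It was at 552 and 538 FPKM for WT roots, 672 and 669 for OE15 roots and 737 and 733 for OE20 roots. No 2 genotypes overlapped, and OE20 was the highest. The mean was 23.0% higher in OE15 and 35.0% higher in OE20, log2 fold changes of 0.30 and 0.43 (limma, standard error (SE) 0.028, adjusted p 0.000598 and 0.000239). The rise kept an adjusted p under 0.05 in each of the 15 alternatives in both lines. Among the loci tested it stood at rank 85 in OE15 and rank 77 in OE20.

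*Lsi2* encodes the efflux transporter that passes silicon on towards the stele. It was at 543 and 546 FPKM for WT roots, 547 and 549 for OE15 roots and 619 and 615 for OE20 roots. The OE15 mean was 0.669% above the WT mean, and both OE20 libraries lay clear of the rest. In OE15 the log2 fold change was 0.0096 (limma, 95% confidence interval -0.054 to 0.073, adjusted p = 0.835), with a confidence interval of the fold from 0.963 to 1.05. In OE20 it rose by 13.4%, a log2 fold change of 0.18 (limma, SE 0.027, adjusted p 0.00736). The rise in OE20 was lost without a trend in the limma fit (adjusted p = 0.0863) and without OE20 replicate 1 or 2 (0.0576 and 0.0509), and with quantile normalization the log2 fold change was 0.097 (0.0483).

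The influx and the efflux gene for silicon thus had near equal levels in the WT but not in the lines. The ratio of *Lsi1* to *Lsi2* within a library was 1.02 and 0.985 in the WT, 1.23 and 1.22 in OE15 and 1.19 and 1.19 in OE20. All 4 OE libraries were above the WT. The ratio is given as a description, since an exact two-sided permutation test of 2 libraries against 2 cannot go below p = 0.333.

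*OsNramp5* encodes the main transporter for the influx of manganese, and with it cadmium, into rice roots. It was at 39.5 and 38.8 FPKM for WT roots, 47.5 and 48.8 for OE15 roots and 46.3 and 46.8 for OE20 roots. The lines lay clear of the WT. It was 23.1% higher in OE15 and 19.1% higher in OE20, log2 fold changes of 0.30 and 0.25 (limma, SE 0.037, adjusted p 0.00197 and 0.00732). In OE20 the adjusted p passed 0.05 without a trend (0.0502) and without OE20 replicate 2 (0.052), and in OE15 it stayed under 0.05 in each of the 15 alternatives.

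*OsMTP9* encodes the efflux partner of *OsNramp5*, which moves manganese out of the exodermis and endodermis towards the stele. It was at 45.1 and 44.8 FPKM for WT roots, 51.2 and 51.9 for OE15 roots and 50.6 and 51.9 for OE20 roots. The lines overlapped each other and lay above the WT. It rose by 14.5% in OE15 and 13.9% in OE20, log2 fold changes of 0.20 and 0.19 (limma, SE 0.036, adjusted p 0.0103 and 0.0195). The rise was sensitive: without a trend in the limma fit it was lost in OE15 (adjusted p = 0.0538) and in OE20 (0.088). The rise was also lost in some fits with a single library left out, in both lines. Over these fits, the log2 fold change in OE15 ran from 0.185 (without OE15 replicate 2) to 0.205 (without OE15 replicate 1). In OE20 it ran from 0.168 (without OE20 replicate 2) to 0.207 (without OE20 replicate 1).

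The profiles of *OsNramp5* and *OsMTP9* over the 6 libraries, each centred on its mean, were the closest of the 36 pairs of members, with a root mean square distance of 0.044 on the log2 scale. The ratio of *OsNramp5* to *OsMTP9* was 0.874 and 0.864 in the WT, 0.928 and 0.940 in OE15 and 0.916 and 0.902 in OE20. Every OE library was above the WT, as for the silicon pair, but the ratio moved less between genotypes. No test of either ratio was made.

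*OsNramp1*, a relative of *OsNramp5* that also carries manganese and cadmium, had the largest fold changes and the lowest level. It was at 1.23 and 1.33 FPKM for WT roots, 2.47 and 1.87 for OE15 roots and 2.05 and 2.11 for OE20 roots. All 4 OE libraries lay above the WT, and the OE15 libraries were spread by 27.4% of their mean. The log2 fold change was 0.70 in OE15 (limma, SE 0.18, adjusted p 0.0338) and 0.65 in OE20 (adjusted p = 0.0597), with 95% confidence intervals from 0.28 to 1.12 and from 0.23 to 1.08. The call in OE15 was lost without WT replicate 1 (0.13), WT replicate 2 (0.0812), OE15 replicate 1 (0.162), OE20 replicate 1 (0.0563) or OE20 replicate 2 (0.0561), and also without a minimum level (0.0871), with the replicate block (0.0503) and with separate fits (0.0577). Over its 14 alternatives the adjusted p ran from 0.0332 to 0.162. With a pseudocount of 1 the log2 fold change in OE15 was 0.47, below the limit of 1.5-fold, so the call was also lost. *OsNramp1* lies 8 places from *OsNramp5* in the order of the locus names on chromosome 7. How reads shared between such relatives were assigned is not given in the sources used here.

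*OsHMA3* encodes a P-type ATPase that pumps cadmium into root vacuoles and holds it back from the shoot. It was at 12.1 and 12.9 FPKM for WT roots, 17.3 and 16.9 for OE15 roots and 16.1 and 16.2 for OE20 roots. Every OE library was above the WT, with OE15 above OE20. It was 36.4% higher in OE15 and 28.7% higher in OE20, log2 fold changes of 0.45 and 0.36 (limma, SE 0.055, adjusted p 0.00196 and 0.00832). Both were below 1.5-fold, and the rise in OE15 held in each of the 15 alternatives. Without OE20 replicate 1 or 2, the adjusted p in OE20 was 0.0557 and 0.0565.

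*OsHMA2*, a P-type ATPase that loads zinc and cadmium for transport to the shoot, was at 19.3 and 19.9 FPKM for WT roots, 18.2 and 19.7 for OE15 roots and 18.3 and 21.1 for OE20 roots. The genotypes overlapped. The log2 fold change was -0.049 in OE15 (adjusted p = 0.701 from limma) and 0.0036 in OE20 (adjusted p = 0.983), and the 95% confidence intervals of the fold ran from 0.851 to 1.10 and from 0.882 to 1.14. The ratio of *OsHMA3* to *OsHMA2*, vacuolar storage against transport to the shoot, was 0.628 and 0.650 in the WT, 0.950 and 0.857 in OE15 and 0.880 and 0.766 in OE20, higher in all OE libraries.

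**Figure D3:**
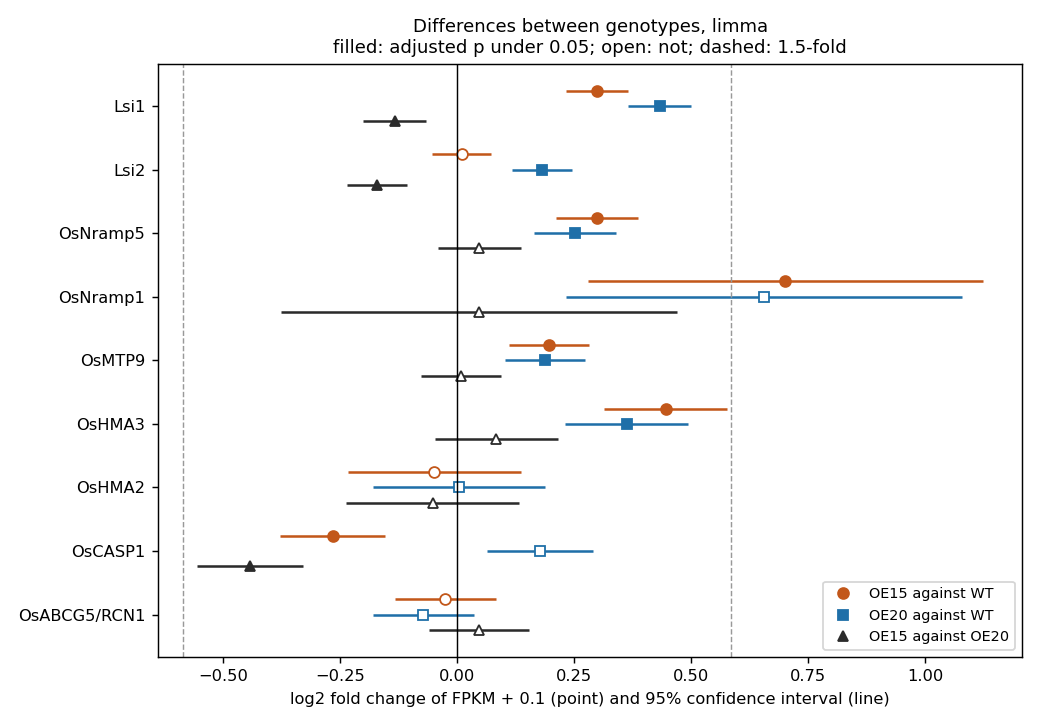
Points are log2 fold changes of FPKM + 0.1 for each gene, with lines for the 95% confidence intervals from limma, for each line against the WT and for the 2 lines against each other. Filled points had an adjusted p under 0.05 and the dashed lines mark 1.5-fold. The points of *Lsi1*, *OsNramp5*, *OsMTP9* and *OsHMA3* are filled and right of 0 in both lines, and the interval of *OsNramp1* is the widest.

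*OsCASP1* encodes a membrane protein that guides the formation of the Casparian strip in the rice endodermis. It was at 49.8 and 46.6 FPKM for WT roots, 41.1 and 39.0 for OE15 roots and 55.1 and 53.8 for OE20 roots. No 2 genotypes overlapped, with OE15 the lowest and OE20 the highest. In OE15 it fell by 16.9%, a log2 fold change of -0.27 (limma, SE 0.048, adjusted p 0.00921). In OE20 the log2 fold change was 0.18 with an adjusted p of 0.0579, which was 0.045 with a minimum mean of 5 FPKM and 0.043 with the replicate block. The fall in OE15 was lost without OE15 replicate 2 (adjusted p = 0.0652).

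*OsABCG5/RCN1* encodes an ABC transporter needed for suberin in the outer layers of the rice root. It was at 35.0 and 37.3 FPKM for WT roots, 35.5 and 35.5 for OE15 roots and 34.7 and 34.0 for OE20 roots. OE15 lay between the WT libraries, and OE20 lay just below them. By limma the log2 fold changes were -0.025 and -0.072, each with a standard error of 0.045 (adjusted p = 0.737 and 0.36), and the 95% confidence intervals of the fold ran from 0.912 to 1.06 in OE15 and from 0.883 to 1.02 in OE20. The ratio of *OsCASP1* to *OsABCG5/RCN1* was 1.42 and 1.25 in the WT, 1.16 and 1.10 in OE15 and 1.59 and 1.58 in OE20.

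**Figure D4:**
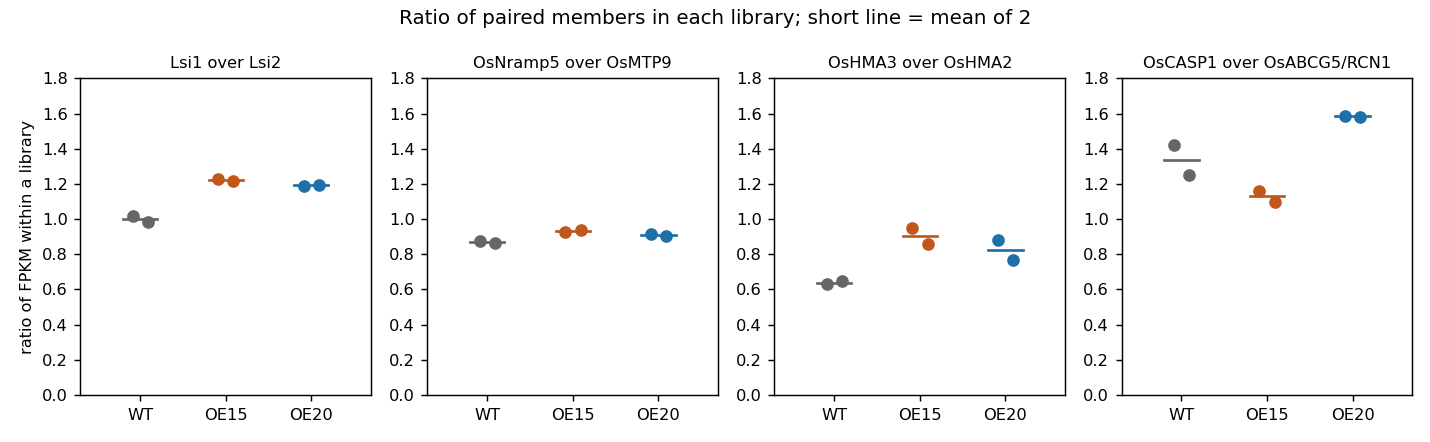
Each point is the ratio of FPKM of 2 members within 1 library, on an axis from 0, and short lines are means of the 2 libraries. The ratio of *Lsi1* to *Lsi2* is 1.02 and 0.985 in the WT and 1.19 to 1.23 in the lines, and that of *OsCASP1* to *OsABCG5/RCN1* is lowest in OE15 and highest in OE20.

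The lines were also compared directly, in the same fit. *OsCASP1* was lower in OE15 than in OE20 by 26.5%, with a log2 difference of -0.44 (limma, SE 0.048, adjusted p 0.00254), with an adjusted p under 0.05 in each of the 15 alternatives. *Lsi2* and *Lsi1* were lower in OE15 by 11.2% and 8.85%, log2 differences of -0.17 and -0.13 (adjusted p = 0.0101 and 0.0286 from limma). These 3 of the 9 members compare with 6.12% of all loci lower in OE15. None of the 9 was differentially expressed between the lines (2.06% of all loci were). No member was higher in OE15 at an adjusted p under 0.05 (5.45% of all loci). An unadjusted p under 0.05 from limma was found for the same 3 genes, *OsCASP1*, *Lsi2* and *Lsi1*, and for 27.6% of all loci. Without overlap of libraries, 3 members were higher and 3 lower in OE15 than in OE20 (29.7% and 28.1% of all loci). The differences in *Lsi1* and *Lsi2* were lost without a trend (adjusted p = 0.155 and 0.1) and without OE15 replicate 1 (0.146 and 0.0872), OE15 replicate 2 (0.164 and 0.0827), OE20 replicate 1 (0.138 and 0.0737) or OE20 replicate 2 (0.113 and 0.0592), and that in *Lsi1* also without a minimum level (0.0902). With quantile normalization the log2 difference was -0.079 for *Lsi1* (0.186) and -0.098 for *Lsi2* (0.049).

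The differences between the other members and lines were smaller than could be separated. For *OsNramp5*, *OsMTP9* and *OsHMA3*, the 95% confidence intervals of the fold between OE15 and OE20 ran from 0.972 to 1.10, from 0.948 to 1.07 and from 0.968 to 1.16. For *OsNramp1* the interval was wide, from 0.770 to 1.38. The spread between replicates differed among the members. The residual SD on the log2 scale was 0.0058 for *Lsi2*, 0.015 for *Lsi1*, 0.018 for *OsMTP9* and 0.020 for *OsNramp5*, smaller than in 96.2% to 99.8% of the loci tested. The median was 0.076 over all loci tested and 0.052 over the 10470 that averaged 10 FPKM or more. *OsHMA2*, at 0.098, and *OsNramp1*, at 0.16, lay above both medians.

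Other genes of metal transport were counted as a list of 32 loci, entered by their MSU names from general knowledge. The list held silicon transporters, the Nramp, ZIP, MTP and heavy metal ATPase families and 3 further transporters. No file used here pairs these loci with names, so they are not named. Of the 32, 30 were tested. In OE15, 9 rose, 4 fell and 17 did not pass the test, with a median log2 fold change of 0.089. Of all loci tested, 10.5% rose and 9.89% fell in OE15, with a median of 0.023. In OE20, 6 rose, 2 fell and 22 did not pass, with a median of 0.033, against 6.40%, 5.47% and a median of 0.016 over all loci. Of the 2 further silicon loci, 1 rose and 1 fell in OE15. The locus that fell, with a log2 fold change of -0.14 (limma, adjusted p 0.0427), rose in OE20 by 0.17 (0.0331) and was lower in OE15 than in OE20 (0.00419). Of the 11 ZIP loci tested, a family that carries zinc and iron into cells, 5 rose and 2 fell in OE15, and 3 rose and 2 fell in OE20, while the family median was -0.020 in OE15 and -0.11 in OE20. In each line 3 of the 30 were differentially expressed, all of them higher and all ZIP loci. Of all loci, 5.50% were in OE15 and 3.11% in OE20. The 3 were not the same set in both lines. Those of OE15 averaged 1.68, 2.49 and 2.36 FPKM over the 6 libraries, and those of OE20 averaged 2.49, 62.7 and 2.36 FPKM. Of the 7 further heavy metal ATPase loci, 1 rose in OE15 and none rose or fell in OE20, and of the 5 further Nramp loci, 2 rose in each line and 1 fell in OE15.

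Supplementary annotation of the study names 4 loci by metals, which it chose on these same libraries, so their direction is not independent evidence. LOC_Os01g74110, annotated as a metal cation transporter and 1 of the 32 loci above, was at 45.5 and 49.3 FPKM for WT roots, 67.3 and 64.2 for OE15 roots and 71.8 and 78.3 for OE20 roots, log2 fold changes of 0.47 and 0.66 (limma, SE 0.059, adjusted p 0.00194 and 0.000817). Of the 3 loci annotated with a heavy metal-associated domain, LOC_Os01g20830 and LOC_Os03g05750 rose in both lines, with log2 fold changes from 0.57 to 0.77. LOC_Os01g41200 fell in both, from 13.4 and 12.9 FPKM in the WT to 7.18 and 6.18 for OE15 roots and 7.47 and 4.90 for OE20 roots, log2 fold changes of -0.97 and -1.11 (limma, adjusted p 0.0106 and 0.0107).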

How the data were processed

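Root mRNA of the WT, OE15 and OE20 was sequenced in 2 libraries per genotype. According to the submitters' processing notes, reads were checked with FastQC 0.11.8, trimmed with Trimmomatic 0.38, mapped with HISAT2 2.1.0 and processed with Cufflinks 2.2.1. The authors deposited FPKM, 1 value per locus and library, with no pooling. Genome build, annotation release, strand setting and the treatment of multiply mapped reads are not given in the sources used here. The labels name MS solution and the study's methods the solution of Yoshida.

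After 4 repeated locus names were left out, 55982 loci remained, and the 20627 with a mean of at least 1 FPKM entered limma 3.58.1 (R 4.3.3) as log2(FPKM + 0.1), with a trend, in one fit of 3 genotypes (3 residual degrees of freedom). The pseudocount slightly understates the change of low genes. Calls needed an adjusted p under 0.05 together with a change over 1.5-fold. The script was tested on simulated data. No count test fits FPKM.

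Text names the 9 members, *OsMYB305*, 4 loci annotated for metals by the study, called loci within 3 places of a member and, for members that rose in both lines, the 2 annotated loci nearest in profile. Members and lists were chosen with earlier results of these data known. Names come from the selection rule. The RefSeq gene table (ASM3414082v1) held 7 of the 9 as synonyms, all 7 on the chromosome of the MSU name, and no coordinates or sequences are printed. Alternatives were other pseudocounts, minimum levels, scalings and thresholds, a replicate block, separate fits, no trend and each library left out.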

Additional observations from a re-analysis of the deposited data

Results flagged for a closer look

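The effect against the WT differed between the 2 lines for 3 members, by limma's test of OE15 against OE20. The log2 difference was -0.44 for *OsCASP1* (adjusted p = 0.00254), where both OE15 libraries lay below the WT and both OE20 libraries above it. It was -0.17 for *Lsi2* (adjusted p = 0.0101) and -0.13 for *Lsi1* (adjusted p = 0.0286), which were lower in OE15. *OsMYB305* itself was higher in OE15 than in OE20, and its part in these differences was not tested.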

How the results depend on the processing

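The count of differentially expressed members in OE15 rested on *OsNramp1*, the lowest of the 9. It was 0 instead of 1 with a pseudocount of 1, without a minimum level, with a minimum mean of 5 FPKM (which removes the gene), with the replicate block, with separate fits and at an adjusted p under 0.01, and 0 to 1 when a library was left out. Without the limit on the fold change it was 6 in OE15, 5 in OE20 and 3 between the lines, instead of 1, 0 and 0. Among all 20627 loci tested it was 4217, 2449 and 2387, instead of 1134, 641 and 425. Signs turned only where the value with the main settings was near 0, with an adjusted p of at least 0.701 from limma. After a turn the value could be larger, up to -0.14 for *OsNramp1* between the lines. For *Lsi2* in OE15 the log2 fold change was -0.00040 with quantile normalization and -0.012 with median-ratio scaling. For *OsHMA2* in OE20 it was -0.023 and -0.011 under these scalings, and from -0.098 to 0.11 without single libraries, and in OE15 from -0.11 to 0.0099. For *OsABCG5/RCN1* in OE15 it ran from -0.072 to 0.022 without single libraries. Between the lines, *OsNramp1* was at -0.0077 with quantile normalization and from -0.14 to 0.24 without single libraries, *OsHMA2* from -0.15 to 0.050 and *OsMTP9* from -0.011 to 0.027. Replicate numbers pair no samples in the sources (correlation of deviations between genotypes -0.069 to 0.031). The replicate block brought *OsCASP1* in OE20 to an adjusted p of 0.043 and took *OsNramp1* in OE15 to 0.0503. FPKM gives no counting interval, so the precision of *OsNramp1* at 1.28 FPKM is known only from 2 libraries.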

Other observations

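Of the 54 loci within 3 places of a member in the order of the MSU names, 23 were tested. Those called in OE15 numbered 3, and the same 3 were called in OE20. Of all loci tested, 5.50% and 3.11% were called. The 3 include LOC_Os07g15340, whose difference was fixed by the filter as described next, so the count is not compared with these shares. LOC_Os07g15340, near *OsNramp5*, was listed at 0 in both WT libraries, with 2.50 and 2.47 FPKM for OE15 roots and 2.69 and 2.60 for OE20 roots. It passed the minimum mean of 1 FPKM only through the OE libraries, so it had to differ, and no p or fold is given. LOC_Os07g12890, next to *OsHMA3* and 1 of the 32 loci counted as a list, was at 1.41 and 1.84 FPKM for WT roots, 2.53 and 2.55 for OE15 roots and 2.65 and 3.16 for OE20 roots (adjusted p = 0.0427 and 0.0265 from limma). LOC_Os01g03940, near *OsMTP9*, was at 3.71 and 4.32 FPKM for WT roots, 6.50 and 7.42 for OE15 roots and 6.27 and 6.59 for OE20 roots (adjusted p = 0.00325 and 0.0103).

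Profiles were compared with those of 453 loci that the study annotates or names. These include loci it listed as differentially expressed on these same libraries, so likeness to a member that rose is not independent evidence. Over the 6 libraries, the profile nearest to that of *OsHMA3* was LOC_Os01g54340, annotated with a plant-specific domain. Its root mean square distance was 0.040 on the log2 scale, and LOC_Os12g28590, annotated as an ATPase, followed at 0.054. For *Lsi1* they were LOC_Os01g58970, a cytochrome P450, at 0.061, and LOC_Os06g05000, an early nodulin, at 0.075. For *OsNramp5* they were LOC_Os01g58970 at 0.089 and LOC_Os01g54340 at 0.090. For *OsMTP9* they were LOC_Os03g32270, a hydrolase, at 0.081, and *OsNIR2* (LOC_Os01g25484) at 0.11, the nearest of the 453 but with flatter profiles. Their log2 fold changes were 0.065 and 0.036 in OE15 and 0.016 and -0.022 in OE20, where those of *OsMTP9* were 0.20 and 0.19. The paper, by contrast, reports higher *OsNIR2* in roots of the lines under low nitrogen, measured by qPCR at the tillering stage.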
